A study of Mus musculus with 6 samples.

Results

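The genes described here were silent in *Ctrl* mouse embryonic stem cells (mESC) and expressed in *Tet iTKO* mESC, in which the *Tet1*, *Tet2* and *Tet3* genes had been deleted acutely. They were chosen by the measured normalized read counts themselves: a gene was kept when its value was 2 or less in each of 3 *Ctrl* lines and 8 or more in each of 3 *Tet iTKO* lines. Symbols that begin with Zscan4, Usp17l, Obox, Tdpoz, Tcstv, Oog, Prame, Hox or Pcdh were left out. Of 22380 genes listed, 34 remained. The difference between the groups is therefore what put a gene on the list, and the levels below are a description with no test. RNA came from 6 lines, 3 of each group, each derived from another embryo. Both groups carried CreERT2 (wt/ki) and the Gt(ROSA)26Sor tm1Ytchn allele (wt/ki), a nuclear GFP reporter that Cre switches on, and the *Tet iTKO* lines were in addition Tet1 fl/fl, Tet2 fl/fl and Tet3 fl/fl. Cre activity was driven by the human ubiquitin C promoter and depends on 4-hydroxytamoxifen, which both groups received at 1 µM for 2.5 days before 4 further days of culture. Live CD326+ GFP+ Thy1.2- cells were sorted at day 6.5 from cultures in 2i and LIF on mouse embryonic fibroblast (MEF) feeders. The *Ctrl* cells thus share the drug, the Cre and the reporter with the *Tet iTKO* cells. No library of the floxed lines without 4-hydroxytamoxifen is among the 6. An effect of the deletion therefore cannot be told apart from differences between the lines that preceded it.

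TET enzymes oxidise the methyl group of 5-methylcytosine, most of which sits in CpG dinucleotides, and so open a route to demethylation. CpG-rich promoters of developmental genes are mostly unmethylated in mESC and are often kept off by Polycomb complexes, whereas CpG-poor promoters of tissue-specific genes are often methylated in cells that do not use them. In 2i medium mESC hold a naive state, in which most genes of differentiated tissues are not transcribed.

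The libraries listed between 3964824 and 4219665 normalized counts, estimated to rest on 3.67 to 5.10 M reads on genes. At that depth a value of 8 stood for about 7.3 to 10.3 reads, and a value of 2 cannot be told apart from none. Reads were not tagged by molecule, and PCR copies are not independent, so such limits cover counting error only. The values count whole genes and give *Tet1* 682 to 716 normalized counts in *Ctrl*, against 753 to 895 in *Tet iTKO*, and *Tet2* 170 to 249 and 211 to 268. *Tet3* had 28, 13 and 13 in *Ctrl* and 10, 3 and 3 in *Tet iTKO*; reads in the deleted exons cannot be set apart in these files. All 12 pluripotency markers checked were expressed in every line, and 0 of 12 passed the limma test at a log2 fold change of 1, with 10 of 12 at an unadjusted p under 0.05. Fewer cells that express a gene and less RNA per cell cannot be told apart in such bulk samples.

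A gene silent in *Ctrl* was common, and one that also reached 8 in every *Tet iTKO* line was rare. In *Ctrl*, 9635 of the 22380 genes were at 2 or less in all 3 lines, and 6316 of these were at 0 in all 6 libraries. Among the 9635, 236 reached 8 in at least 1 *Tet iTKO* line: 139 in exactly 1 line, 61 in 2 and 36 in 3. The 36 are 0.374% of the silent genes. Of these, 2 were left out by their prefix: *Usp17le*, at 0, 2 and 1 normalized counts in *Ctrl* lines against 82, 66 and 71 in *Tet iTKO*, and *Pramef25*, with 1, 0 and 0 against 8, 12 and 17. The reverse choice, 2 or less in every *Tet iTKO* line and 8 or more in every *Ctrl* line, found 5 genes among 9090 (*A2m*, *Cdh20*, *4933427D06Rik*, *Fhit* and *Hus1b*). Both choices use the same 6 libraries, and the 34 and the 5 are set side by side without a test. Over all genes, the *Tet iTKO* libraries had 14024, 14363 and 14115 genes above 0, against 13539, 13494 and 13431 in *Ctrl*. What part this wider detection has in the 34 and the 5 was not tested.

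**Figure D1:**
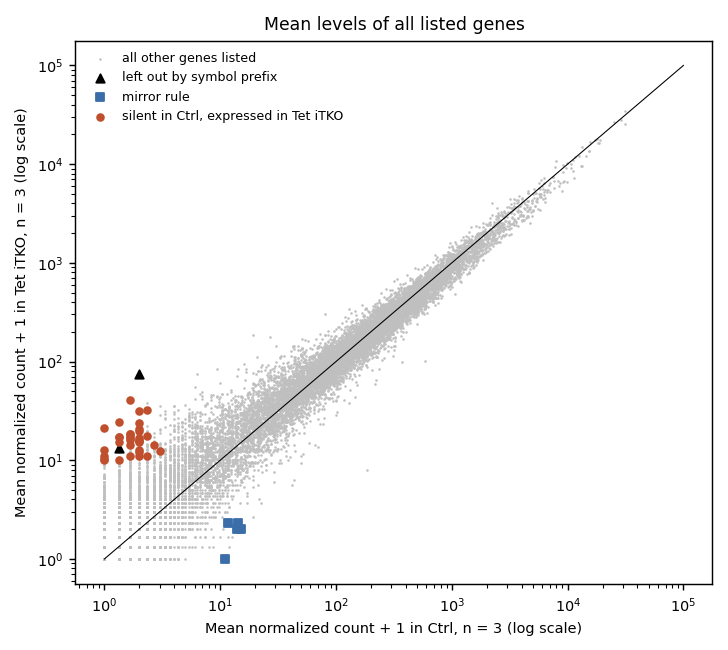
Mean normalized count plus 1 in Ctrl (x axis, log scale, n = 3 lines) against Tet iTKO (y axis, log scale, n = 3 lines) for every gene listed, with the line of equality. The 34 chosen genes (orange circles) lie at the left edge with Tet iTKO means of 9 to 39.7, the 5 genes of the reverse choice (blue squares) lie along the bottom, and the 2 genes left out by prefix are black triangles.

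The genes had low levels in *Tet iTKO*. The median of their *Tet iTKO* means was 15 normalized counts, from 9 in *Pmp22* and *Kif26a* to 39.7 in *Dll3*, and the median per kb of transcript was 5.21 normalized counts. Summed over the 34 genes, the *Ctrl* lines had 26, 28 and 23 normalized counts and the *Tet iTKO* lines 554, 534 and 563. Of the 34, 5 were at 0 in every *Ctrl* line and 14 had a *Ctrl* value of 2. Many stood close to the limits: 15 had a lowest *Tet iTKO* value of 8 or 9, with means of 9 to 17.3, and 21 other silent genes outside the excluded prefixes had a lowest value of 6 or 7, with means of 6 to 24.7. Of these, 9 had a lowest value of 7, among them *Apln*, *Thrsp* and *Fgf8*. A further 21 genes missed the list because 1 or more *Ctrl* lines had 3, among them *Gcm1*, *Crym*, *Amn* and *Mixl1*.

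**Figure D2:**
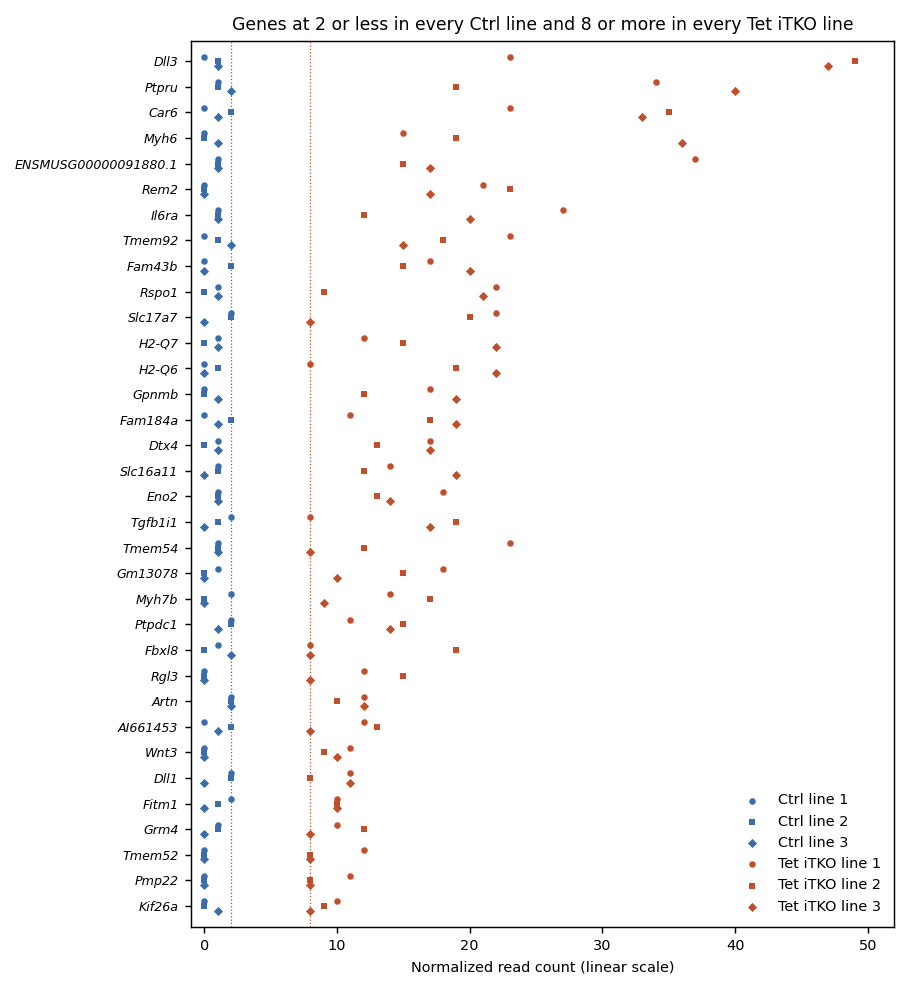
Normalized read count (x axis, linear) of each of the 34 genes in each line, with Ctrl lines in blue and Tet iTKO lines in orange, ordered by the Tet iTKO mean. Dotted lines mark the limits of 2 and 8 that chose the genes; 6 genes have a Tet iTKO value above 25.

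Only 7 of the 34 had a mean of 10 or more over the 6 libraries and so entered the limma test of all expressed genes (10524 tested, called at an adjusted p under 0.05 and a log2 fold change of 1 or more). All 7 were called higher, beside a background of 4.95% of the genes tested; since the same values chose them, nothing is read from that count. The background of genes called lower was 1.3%. A count of calls below refers to this test, in which 521 genes were higher and 137 lower, so that 79.2% of the calls were higher; after quantile normalization this share was 58.3%.

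Genes with a symbol numbered 33, and all 33 were protein coding in the GENCODE M21 annotation. So were 96.4% of all listed genes with a symbol, 92.9% of those silent in *Ctrl* and 100% of those called higher. The biotype is therefore close to that of the listed genes as a whole. No long noncoding RNA, antisense transcript or pseudogene with a symbol was among them. The remaining gene, ENSMUSG00000091880.1, had no symbol; it had 1, 1 and 1 normalized counts in *Ctrl*, against 37, 15 and 17 in *Tet iTKO*. By their textbook roles, 8 of the 34 encode secreted or cell surface signalling proteins, 5 intracellular signalling proteins, 3 muscle proteins, 3 proteins of the nervous system, 3 immune or phagocyte surface proteins and 2 an enzyme or a transporter of other tissues. The other 10 have other or little described roles. Each gene was placed in 1 group only, and *Grm4*, *Artn*, *Rem2* and *Kif26a*, also known from nervous tissue or neurons, are counted in other groups. These roles were not counted over silent or listed genes, so the group sizes are not read as a trait of the list.

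By this grouping, the largest group with a described role held secreted and cell surface signalling proteins. Their 8 genes summed to 8, 8 and 7 normalized counts in the *Ctrl* lines, against 150, 128 and 169 in the *Tet iTKO* lines. The Notch pathway, in which Delta and Jagged ligands on a cell activate Notch receptors on its neighbour, gave both *Dll3* and *Dll1*. *Dll3* encodes a divergent Delta ligand that restrains Notch signalling and is known from the presomitic mesoderm and neural progenitors; it had 0, 1 and 1 normalized counts in *Ctrl*, against 23, 49 and 47 in *Tet iTKO*, a mean of 39.7 ± 14.5 (SD, n = 3). *Dll1*, an activating ligand of somites and neural progenitors, had 2, 2 and 0 in *Ctrl* and 11, 8 and 11 in *Tet iTKO*. *Dtx4*, of the Deltex ubiquitin ligases that act on Notch, had 1, 0 and 1 against 17, 13 and 17. *Dll3* had the highest mean of all 34 genes, and *Dll1* stood at the limits on both sides.

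Of the other 28 Notch pathway genes (this and the other family lists were drawn up after the 34 genes were known), 19 were tested and 1 called higher, with a median log2 fold change of 0.40 against 0.01 for all genes tested. The call was *Jag2*, a ligand, at 4, 3 and 9 normalized counts in *Ctrl* lines against 16, 21 and 27 in *Tet iTKO* (log2 fold change 1.90 ± 0.58 (SE), limma adjusted p = 0.0092). That call was lost without *Tet iTKO* line 3 and after values were corrected for transcript GC content and length. *Dll4*, another ligand, was at 0 in all 6 libraries, which allows up to 3 counts per library. The receptor genes *Notch2*, *Notch3* and *Notch4* had log2 fold changes of 0.92, 0.61 and 0.74, below the fold of 1 that a call needs. *Notch2* was called without *Ctrl* line 1 or *Tet iTKO* line 2 (1.01 and 1.09). With the GC and length correction the 3 values became 0.26, -0.18 and -0.05. *Hes1*, a target gene of Notch signalling, had 191, 183 and 185 in *Ctrl* and 196, 158 and 169 in *Tet iTKO* (log2 fold change -0.10 ± 0.14 (SE), limma adjusted p = 0.6). The targets *Hes5*, *Hes7*, *Heyl* and *Hey2* had at most 5 normalized counts in any line. *Nrarp*, another target, had 2, 0 and 4 against 12, 6 and 4, and *Hey1* had 4, 4 and 2 against 1, 10 and 7, so both overlapped between the groups.

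Wnt signalling was represented by a ligand and by a secreted enhancer. *Wnt3*, a ligand needed for the primitive streak, was at 0 in all 3 *Ctrl* lines and had 11, 9 and 10 normalized counts in *Tet iTKO*, at least 3.33-fold above a floor of 3 counts per library. *Rspo1*, an R-spondin that raises Wnt receptor levels through LGR receptors and is known from the ovary, had 1, 0 and 1 in *Ctrl* and 22, 9 and 21 in *Tet iTKO*. Of 19 Wnt ligand genes, 14 were silent in *Ctrl*, and of these 14 *Wnt3* was the one on the list. The 3 Wnt genes tested included 2 called higher: *Wnt8a*, with 6, 2 and 7 against 38, 20 and 21 (log2 fold change 2.25 ± 0.57 (SE), limma adjusted p = 0.002), and *Wnt3a*, with 2, 8 and 5 against 15, 33 and 14 (1.88 ± 0.61 (SE), limma adjusted p = 0.015). The *Wnt3a* call was lost without *Ctrl* line 1 and after quantile normalization. The other R-spondin genes, *Rspo2*, *Rspo3* and *Rspo4*, had at most 4 normalized counts in any line.

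**Figure D3:**
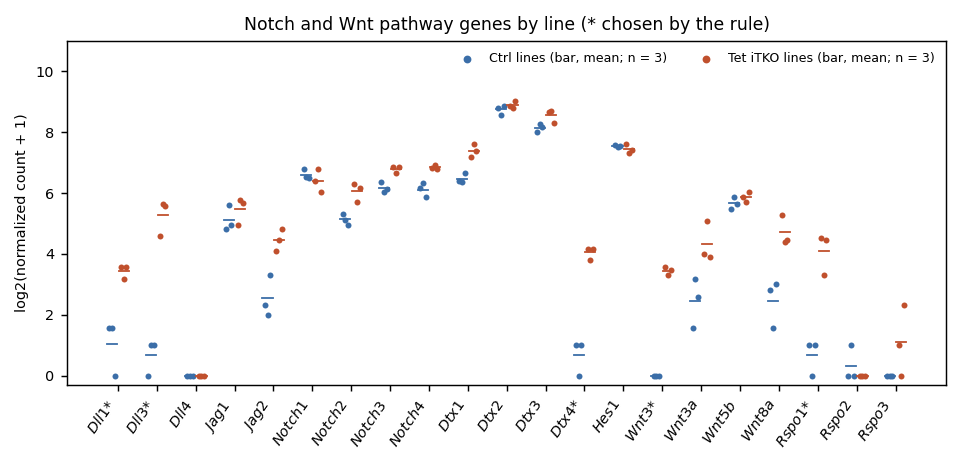
log2(normalized count + 1) in each Ctrl (blue) and Tet iTKO (orange) line for genes of the Notch pathway, Wnt ligands and R-spondins; short bars are means of 3 lines and asterisks mark the genes chosen by their values. The chosen genes Dll1, Dll3, Dtx4, Wnt3 and Rspo1 leave the floor in all Tet iTKO lines, Dll4 stays at 0, and Hes1 overlaps between the groups.

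The other 4 surface or secreted signalling genes came from different systems. *Ptpru*, a receptor tyrosine phosphatase of the R2B class that sits at cell contacts, had 1, 1 and 2 normalized counts in *Ctrl*, against 34, 19 and 40 in *Tet iTKO*. *Il6ra*, the chain that binds interleukin-6 on liver cells and leukocytes, had 1, 1 and 1 against 27, 12 and 20. These were the 2nd and 7th highest means of the 34. *Artn*, artemin, a GDNF family ligand for sympathetic and sensory neurons, had 2, 2 and 2 against 12, 10 and 12. *Grm4*, a metabotropic glutamate receptor known from the cerebellum, had 1, 1 and 0 against 10, 12 and 8. The partners they act with differed in level: *Il6st*, the signalling chain used with *Il6ra*, had 195 to 209 normalized counts in *Ctrl*, against 191 to 221 in *Tet iTKO*, while *Gfra3*, the co-receptor of artemin, had 0 in *Ctrl* and 1, 5 and 3 in *Tet iTKO*.

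Within cells, signalling genes on the list included small GTPase regulators. *Rem2* belongs to the RGK GTPases, which restrain voltage-gated calcium channels, and is known from brain and pancreatic islets. It was at 0 in all *Ctrl* lines and had 21, 23 and 17 normalized counts in *Tet iTKO* (20.3 ± 3.06 (SD, n = 3)), at least 6.78-fold above the floor and the highest of the 5 genes with no *Ctrl* count. The other RGK genes *Rem1*, *Rrad* and *Gem* were silent in *Ctrl* too and had 0 to 7 in *Tet iTKO*. *Rgl3*, of the RalGDS family that activates Ral GTPases, was at 0 in *Ctrl* and had 12, 15 and 8. *Tgfb1i1* (Hic-5), a focal adhesion protein of the paxillin family known from fibroblasts and smooth muscle, had 2, 1 and 0 against 8, 19 and 17. *Ptpdc1*, a protein tyrosine phosphatase, had 2, 2 and 1 against 11, 15 and 14. The relatives *Ralgds*, *Rgl2* and *Pxn* were well expressed in both groups, with log2 fold changes of 0.76, 0.54 and 0.72 that stayed below 1.

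Muscle genes on the list were myosins of the heart and slow muscle and a lipid storage protein. *Myh6*, the α-myosin heavy chain of the heart, had 0, 0 and 1 normalized counts in *Ctrl*, against 15, 19 and 36 in *Tet iTKO*. *Myh7b*, a slow-type myosin whose intron hosts the microRNA gene *Mir499*, had 2, 0 and 0 against 14, 17 and 9. *Fitm1*, which promotes lipid droplet storage in skeletal muscle and heart, had 2, 1 and 0 against 10 in each *Tet iTKO* line. Other sarcomere and cardiac genes differed in level. *Tnnc1*, *Pln* and *Myod1* were at 0 in all 6 libraries, *Tnnt2* and *Actc1* reached at most 1, and *Myh7*, the β-myosin, had 0 to 2 in *Ctrl* and 1 to 3 in *Tet iTKO*. *Myh3*, an embryonic myosin, had 2, 9 and 9 against 9, 12 and 3. The 18 muscle markers summed to 1421 to 1704 in *Ctrl* and 1655 to 1801 in *Tet iTKO*, most of it from *Mylpf*; 13 were silent in *Ctrl*, and apart from *Myh6*, 2 were tested and 1 called higher, *Des*. *Des*, which encodes the intermediate filament desmin, had 40, 40 and 32 against 71, 82 and 85 (log2 fold change 1.07, limma adjusted p = 0.00085). This call was lost without *Ctrl* line 3 (0.97), after quantile normalization (0.94) and with the GC and length correction (0.77). *Nkx2-5*, a cardiac transcription factor, had 0, 0 and 2 against 10, 5 and 14 and missed the list by 1 line. *Myh6* shares 22.6% of its 50-base windows with *Myh7* and other transcripts of that locus.

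Genes known from the nervous system were *Eno2*, *Slc17a7* and *Pmp22*. *Eno2*, the neuronal enolase, had 1, 1 and 1 normalized counts in *Ctrl*, against 18, 13 and 14 in *Tet iTKO*. *Slc17a7*, the vesicular glutamate transporter VGLUT1 of excitatory neurons, had 2, 2 and 0 against 22, 20 and 8, whereas its relatives *Slc17a6* and *Slc17a8* had at most 1 in any line. *Pmp22*, a myelin protein of Schwann cells that is also found in fibroblasts and epithelia, was at 0 in *Ctrl* and had 11, 8 and 8. Of 19 neural markers, 6 were tested and 0 called in either direction by limma (3 at an unadjusted p under 0.05), while 2 were called higher without the filter on the mean and 1 without *Ctrl* line 1 or *Tet iTKO* line 3. *Syn1*, a synaptic vesicle protein gene, had 29, 23 and 18 against 51, 46 and 39 (log2 fold change 0.95, short of the fold for a call, limma adjusted p = 0.023). *Pax6* had 4, 2 and 1 against 14, 11 and 11, *Gfap* 1, 0 and 0 against 6, 3 and 4, and *Dcx* was at 0 throughout. The sum over the list was 2912 to 3362 in *Ctrl* and 2558 to 2629 in *Tet iTKO*, most of it from *Stmn2* and *Tubb3*. The ubiquitous enolase *Eno1* had 9679 to 10219 and 10362 to 10396, far above *Eno2* in every line.

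Immune and phagocyte genes were the neighbouring class I genes *H2-Q6* and *H2-Q7* and *Gpnmb*. The former pair encodes Qa-2 antigens, nonclassical major histocompatibility molecules also known from preimplantation embryos. *H2-Q6* had 0, 1 and 0 normalized counts in *Ctrl*, against 8, 19 and 22 in *Tet iTKO*, and *H2-Q7* had 1, 0 and 1 against 12, 15 and 22. They lie 9.1 kb apart on chromosome 17, the closest pair and the only one within 50 kb among the 33 genes with a symbol. Both rank the *Tet iTKO* lines in the same order, and since 35% of the 50-base windows of *H2-Q6* and 28.5% of those of *H2-Q7* occur in other transcripts, mostly of each other and of *H2-Q4*, *H2-Q5* and *H2-Q10*, reads of the 2 genes may have been split or dropped by unique alignment. *H2-Q4*, 39.6 kb from *H2-Q6*, was at 0 in all libraries, and *H2-Q10* had 3, 13 and 13 against 28, 22 and 15 and was not called (limma adjusted p = 0.069). *Gpnmb*, a glycoprotein of macrophages, osteoclasts and melanocytes, had 0, 0 and 1 against 17, 12 and 19, while its relative *Pmel* had 131, 94 and 106 against 63, 72 and 66 (log2 fold change -0.70, short of the fold for a call). Blood cell markers *Ptprc*, *Cd52* and *Csf1r* were at 0 in all 6 libraries. *Spi1*, a myeloid and B cell transcription factor, had 4, 3 and 2 against 18, 13 and 18, and *Lyz2*, lysozyme, had 4, 2 and 5 against 9, 8 and 10. Of 4 tested blood markers 1 was called higher (*Coro1a*), and the sum over 22 markers was 656 to 779 in *Ctrl* and 575 to 675 in *Tet iTKO*, most of it from *Laptm5* (556, 605 and 676 against 530, 421 and 439).

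*Car6* and *Slc16a11* are known from other tissues. *Car6*, the carbonic anhydrase secreted into saliva and milk, had 0, 2 and 1 normalized counts in *Ctrl*, against 23, 35 and 33 in *Tet iTKO*, and per kb of transcript it had the highest mean, at 19.4 normalized counts, ahead of *Dll3* at 15.2. Of the other 14 carbonic anhydrase genes, 3 were tested and 1 called higher, *Car2* (21, 49 and 14 against 84, 70 and 98; log2 fold change 1.73, limma adjusted p = 5.2e-05). *Slc16a11*, a monocarboxylate transporter relative known from liver, had 1, 1 and 0 against 14, 12 and 19. *Slc16a13*, which lies 0.372 kb from it on the opposite strand, had 21, 30 and 18 against 41, 49 and 50 (log2 fold change 1.02, limma adjusted p = 0.014), a call at the fold limit that was lost under 9 alternatives, with values of 0.81 to 0.99.

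The last 10 genes share no common function. *Tmem92*, a transmembrane protein gene active in 2-cell embryos and in the rare 2-cell-like cells of mESC cultures, had 0, 1 and 2 normalized counts in *Ctrl*, against 23, 18 and 15 in *Tet iTKO*. A list of 21 genes linked to 2-cell-like cells, *Tmem92* included, held none of the symbols left out by prefix. Of the 21, 17 were silent in *Ctrl* and 3 were tested, of which 2 were called higher, *Gm2016* and *Arg2*. The list summed to 25 to 50 in *Ctrl* and 142 to 175 in *Tet iTKO*. *Snai1*, which is not particular to that stage, gave 14, 21 and 34 of this against 29, 52 and 45. *Gm2016* gave 5, 1 and 3 against 41, 25 and 38. The other genes of that list went different ways, and 6 of the 21 were at 0 in all libraries. *Gm12794* had 0, 0 and 4 against 11, 16 and 26, *Sp110* had 1, 0 and 0 against 15, 7 and 4, and *Gm5662* had 1, 0 and 0 against 6, 3 and 11. *Zfp352* had 2, 1 and 0 against 0, 1 and 0, and *Duxf3* had 1, 0 and 0 against 0, 1 and 3. *Gm13078* had 1, 0 and 0 against 18, 15 and 10, and 14.8% of its 50-base windows occur in *Pramef6* and similar transcripts, so it resembles the Prame genes left out by prefix.

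*Fam43b* had 0, 2 and 0 normalized counts in *Ctrl*, against 17, 15 and 20 in *Tet iTKO*, and *Fam184a* had 0, 2 and 1 against 11, 17 and 19. *Tmem54* had 1, 1 and 1 against 23, 12 and 8, the widest ratio between *Tet iTKO* lines at 2.88. *Tmem52* was at 0 in *Ctrl* and had 12, 8 and 8. The function of these 4 genes is little described. *Kif26a*, an atypical kinesin known from enteric neurons, had 0, 0 and 1 against 10, 9 and 8, while *Kif26b* had at most 1 in any line. *Fbxl8*, an F-box protein gene, had 1, 0 and 2 against 8, 19 and 8. *AI661453* had 0, 2 and 1 against 12, 13 and 8, and *Guca1b*, which lies 43.6 kb from it, had 8, 7 and 7 against 36, 23 and 40 (log2 fold change 1.99, limma adjusted p = 0.00089).

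Among the 34 genes no *Tet iTKO* line stood apart, but the limits ask for 8 or more in every *Tet iTKO* line. Silent genes that reached 8 in only 1 line (139) or in 2 (61) had been left out, so likeness of the lines is partly set by the choice. Line 1 was the highest alone for 12 genes, line 2 for 10 and line 3 for 8; line 1 was the lowest alone for 8, line 2 for 12 and line 3 for 10. The ratio of the highest to the lowest *Tet iTKO* value had a median of 1.6 over the 34, was under 1.5 for 11 genes and 2 or more for 11. *Fitm1* and *Artn* varied least, with ratios of 1 and 1.2, and *Tmem54*, *Slc17a7* and *H2-Q6* most, with ratios of 2.88, 2.75 and 2.75. Every one of these ratios rests on low counts.

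The limits were also applied to 4 lines at a time, leaving out the *Ctrl* and *Tet iTKO* line of each number in turn. Values in the left-out lines were then described. Without lines 1, 82 genes met the limits, and 51 of them (62.2%) reached 8 in *Tet iTKO* line 1, against 7 (8.54%) in *Ctrl* line 1. Without lines 2, 58 of 86 (67.4%) reached 8 in *Tet iTKO* line 2 against 3 (3.49%) in *Ctrl* line 2, and without lines 3, 53 of 86 (61.6%) did so in *Tet iTKO* line 3 against 6 (6.98%) in *Ctrl* line 3. Among the other genes silent in the same 2 *Ctrl* lines, 1.2% to 1.27% reached 8 in the left-out *Tet iTKO* line. The left-out *Tet iTKO* value was above the left-out *Ctrl* value for 73 of 82, 77 of 86 and 77 of 86 genes. The 34 genes are in each of these sets and meet both limits in the left-out lines, because all 6 libraries chose them. The rounds also reuse the same lines, so these shares are a description and no independent test of the 34. Over all genes chosen on 4 lines, medians were 10, 12 and 8 in the left-out *Tet iTKO* lines and 1, 2 and 1 in the left-out *Ctrl* lines.

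**Figure D4:**
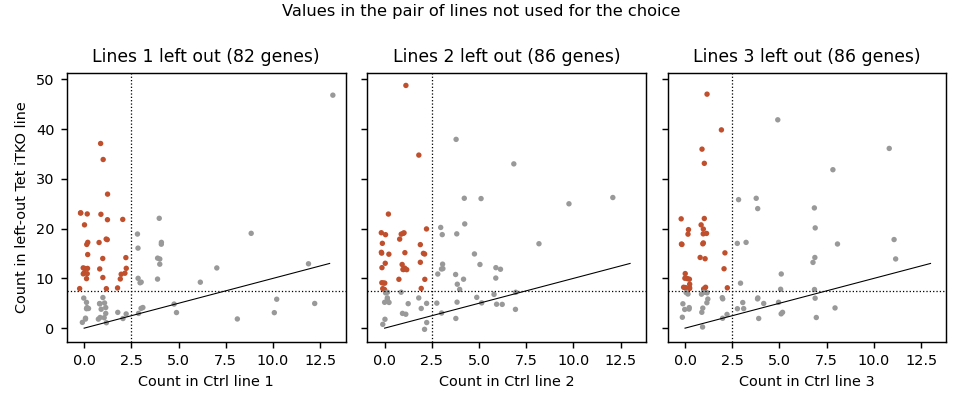
Normalized counts in the Ctrl line (x axis) and Tet iTKO line (y axis) of the number left out, for the genes that met the limits in the other 4 lines; points are jittered by up to 0.25, dotted lines mark the limits, the solid line is equality, and orange points are the 34 genes. Most points lie above equality (73 of 82, 77 of 86 and 77 of 86), the 34 genes by the way they were chosen.

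The 34 genes were unevenly spread over the chromosomes. Chromosome 4 held 8 of the 33 genes with a symbol (24.2%), against 5.96% of listed genes, 4.95% of genes silent in *Ctrl* and 6.76% of the genes called higher; they are *Ptpru*, *Car6*, *Fam43b*, *Rspo1*, *Tmem54*, *Gm13078*, *Artn* and *Tmem52*. The median log2 fold change of all tested genes on chromosome 4 was 0.00, and no pair of these 8 lay within 50 kb of each other. Those with a RefSeq promoter lay from position 117929714 (*Artn*) to 150201385 (*Car6*) of build GRCm38.p6. Grouping over distances above 50 kb was not tested. Chromosome 17 held 5 (15.2%), among them *H2-Q6* and *H2-Q7*, against 4.86% of listed and 4.58% of silent genes, and chromosomes 1, 5, 15, 16, 18 and X held none.

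Most neighbouring genes were not called. Within 50 kb of the 33 genes lay 131 other listed genes, of which 30 were silent in *Ctrl* and 89 were tested. Of the 89, 7 were called higher (7.87%, against 4.95% of all genes tested) and 0 lower by limma. At an unadjusted p under 0.05, 30 were higher and 17 lower, and the median log2 fold change was 0.03 against 0.01. The 7 were *Guca1b* near *AI661453*, *B4galt2* near *Artn*, *Rec8* near *Fitm1*, *Aspg* near *Kif26a*, *Plppr2* near *Rgl3*, and *Bcl6b* and *Slc16a13* near *Slc16a11*. Without *Tet iTKO* line 2 the count was 3, and with the GC and length correction it was 2. Each of the 7 but *Guca1b* lost its call under at least 1 alternative in which it was tested.

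Because Smart-Seq2 libraries keep no strand, reads of overlapping genes on opposite strands cannot be told apart. An opposite-strand gene of the GENCODE M21 annotation overlapped 11 of the 33, and for 4 of them that gene was in the files. The expressed partner was *Trpc4ap*, which overlaps *Myh7b* and had 365, 345 and 329 normalized counts in *Ctrl*, against 437, 414 and 448 in *Tet iTKO*. *Hpca*, which overlaps *Tmem54*, had 1, 16 and 7 against 8, 12 and 9. *1700001C19Rik*, over *AI661453*, and *AB041806*, over *Fam43b*, had at most 2 in any line.

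The genes differed from other silent genes in base composition. Their transcripts had a median GC content of 56.4% (quartiles 51.2% and 60.0%), against 47.3% for all genes silent in *Ctrl*, 50.0% for all genes tested and 55.1% for genes called higher. The median transcript length was 3076 bases, against 2316 for silent genes and 3634 for genes called higher. Since GC content also moves with the calls over all genes, it was not tested what part it has in these values. With the GC and length correction 13 of the 34 still met the limits, and 22 did once values were rounded again to whole numbers. All 7 genes tested were still called higher, but the same values chose them, so nothing is read from that.

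Promoters of 26 of the 34 were found in RefSeq (250 bases before to 50 after the first listed start, build GRCm38.p6); the other 8 were not matched. Of these, 14 (53.8%) had an observed over expected CpG ratio of 0.6 or more, against 16.6% of 5787 promoters of other silent genes, 56.4% of 388 promoters of other genes called higher, 77.5% of 8334 promoters of tested genes and 36.5% of 27025 in all. The median number of CpG in the 300 bases was 16.5, against 4 for other silent genes and 22 for tested genes. The range was wide, from 2 in *Myh6* to 45 in *Fam184a*. The role groups are small and were not tested against each other. Of the surface and secreted signalling genes 6 of 7 with a promoter were at 0.6 or more, and of those with other or little described roles 5 of 5. For intracellular signalling 1 of 3, for the nervous system 1 of 3 and for the enzyme and transporter 1 of 2 reached 0.6. All 3 muscle genes were below it, at 0.0833 to 0.2, and so were all 3 immune and phagocyte genes, at 0.452 to 0.592.

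**Figure D5:**
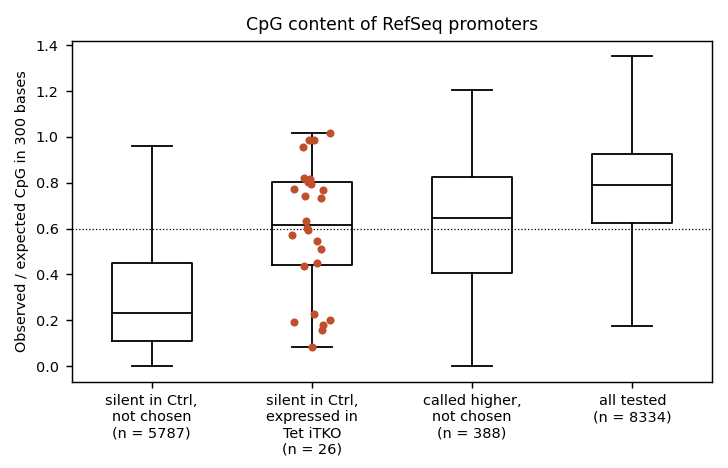
Observed over expected CpG ratio (y axis) in 300 bases of RefSeq promoter for 4 sets of genes; boxes are quartiles, whiskers reach the last value within 1.5 times the box, and orange points are the 26 promoters of chosen genes. The chosen genes have a median of 0.616, against 0.232 for other silent genes, 0.648 for other genes called higher and 0.789 for all tested genes; the dotted line is at 0.6.

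Examples across that range are given here because most methylated cytosines, the substrate of the deleted enzymes, sit in CpG; methylation itself was not analysed here. They are printed with each CpG in capitals: *Ptpru*, with 40 CpG and a ratio of 1.02, and *Wnt3*, with 24 and 0.744, stand for CpG-rich promoters, *Dll3*, with 11 and 0.573, lies between, and *Rem2*, with 5 and 0.228, and *Myh6*, with 2 and 0.0833, are CpG-poor.
Ptpru, GRCm38.p6 chr4:131838229-131838528, minus strand: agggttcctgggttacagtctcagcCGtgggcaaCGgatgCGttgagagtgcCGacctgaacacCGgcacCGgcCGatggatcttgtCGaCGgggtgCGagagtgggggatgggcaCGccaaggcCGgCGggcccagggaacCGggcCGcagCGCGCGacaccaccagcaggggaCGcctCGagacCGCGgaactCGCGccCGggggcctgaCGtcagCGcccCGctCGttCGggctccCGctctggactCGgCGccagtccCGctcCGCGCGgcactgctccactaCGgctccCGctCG
Wnt3, GRCm38.p6 chr11:103773925-103774224, plus strand: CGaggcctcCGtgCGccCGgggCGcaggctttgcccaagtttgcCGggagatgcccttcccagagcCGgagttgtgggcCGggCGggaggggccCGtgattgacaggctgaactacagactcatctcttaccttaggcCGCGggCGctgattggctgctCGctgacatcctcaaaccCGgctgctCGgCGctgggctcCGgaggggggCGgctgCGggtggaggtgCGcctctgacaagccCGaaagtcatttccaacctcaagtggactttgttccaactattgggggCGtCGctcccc
Dll3, GRCm38.p6 chr7:28301736-28302035, minus strand: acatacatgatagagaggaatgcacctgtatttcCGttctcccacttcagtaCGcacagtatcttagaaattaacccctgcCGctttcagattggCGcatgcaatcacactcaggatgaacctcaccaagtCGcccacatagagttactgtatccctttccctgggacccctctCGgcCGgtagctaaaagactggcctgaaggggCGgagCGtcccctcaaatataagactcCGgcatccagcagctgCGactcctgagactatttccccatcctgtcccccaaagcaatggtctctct
Rem2, GRCm38.p6 chr14:54475850-54476149, plus strand: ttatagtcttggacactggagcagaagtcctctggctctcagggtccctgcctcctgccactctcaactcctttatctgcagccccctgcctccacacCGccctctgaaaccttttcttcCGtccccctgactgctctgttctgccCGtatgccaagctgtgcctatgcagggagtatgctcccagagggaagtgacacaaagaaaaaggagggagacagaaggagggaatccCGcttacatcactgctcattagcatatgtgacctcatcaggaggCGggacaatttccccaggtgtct
Myh6, GRCm38.p6 chr14:54966558-54966857, minus strand: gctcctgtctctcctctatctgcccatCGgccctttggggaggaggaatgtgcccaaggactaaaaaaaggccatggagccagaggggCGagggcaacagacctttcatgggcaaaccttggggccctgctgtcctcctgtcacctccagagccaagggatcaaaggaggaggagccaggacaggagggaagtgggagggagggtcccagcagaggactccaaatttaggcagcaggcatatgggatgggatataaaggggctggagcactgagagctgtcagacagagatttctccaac

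The promoters of *H2-Q6* and *H2-Q7* are shown to make the likeness of this pair visible. Shifted by 39 bases without gaps, 200 of 261 bases were identical (76.6%), and they hold 11 and 12 CpG.
H2-Q6, GRCm38.p6 chr17:35424600-35424899, plus strand: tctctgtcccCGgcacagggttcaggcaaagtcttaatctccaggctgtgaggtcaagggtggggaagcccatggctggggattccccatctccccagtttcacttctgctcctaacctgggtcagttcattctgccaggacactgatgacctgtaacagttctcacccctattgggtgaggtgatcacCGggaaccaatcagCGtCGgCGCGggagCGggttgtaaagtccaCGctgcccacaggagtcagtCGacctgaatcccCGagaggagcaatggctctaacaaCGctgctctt
H2-Q7, GRCm38.p6 chr17:35438905-35439204, plus strand: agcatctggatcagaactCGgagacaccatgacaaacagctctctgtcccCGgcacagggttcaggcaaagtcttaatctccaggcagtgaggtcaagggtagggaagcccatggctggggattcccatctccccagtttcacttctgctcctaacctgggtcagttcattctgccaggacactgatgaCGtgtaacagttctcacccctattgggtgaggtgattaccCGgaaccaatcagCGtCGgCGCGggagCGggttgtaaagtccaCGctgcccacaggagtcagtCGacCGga

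Short motifs were searched on both strands of the 26 promoters. TATAAA was in 3 (11.5%; 14.2% of all 27025 RefSeq promoters, 21.0% of other silent genes and 8.76% of other genes called higher), in *Eno2*, *Myh6* and *Rgl3*. GGGCGG was in 12 (46.2%; 35.9% of all, 23.1% of other silent genes and 66.8% of other genes called higher), CCAAT in 10 (38.5%; 37.9% of all), and GTGGGAA in 1 (3.85%; 6.39% of all), *Il6ra*. Overlaps between matches of different motifs were not set apart. These are matches of letters and no sites of binding.

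Markers of other cell types were set beside the list, since feeder fibroblasts were in the culture. The 20 fibroblast markers summed to 435 to 441 normalized counts in *Ctrl*, against 745 to 767 in *Tet iTKO*, and 3 of 10 tested were called higher (*Col1a2*, *Col3a1* and *Bgn*). The *Col1a2* call was lost with the GC and length correction and without *Ctrl* line 2, and that of *Bgn* without the variance trend and without *Ctrl* line 3. *Col1a1* had 181, 170 and 150 in *Ctrl* and 304, 281 and 349 in *Tet iTKO* (log2 fold change 0.89, short of the fold for a call). *Fbn1* had 2, 1 and 2 against 15, 10 and 6 and missed the list by 1 line. *Fap* was at 0 in all libraries, *Postn* reached at most 3, and *Thy1*, the marker against which cells were sorted, had 30, 46 and 41 in *Ctrl* and 47, 35 and 23 in *Tet iTKO*. What part these cells have in *Tgfb1i1*, *Pmp22* or other genes of the list was not tested. Simple epithelial markers summed to 1356 to 1473 and 1748 to 1784, with 4 of 9 tested called higher (*Krt8*, *Krt18*, *Cldn3* and *Cldn7*). Of stratified epithelial markers 0 of 4 tested were called by limma, with 3 at an unadjusted p under 0.05, and sums were 995 to 1133 and 1310 to 1468. For endoderm and liver 1 of 2 tested was called higher (*Gata4*, a call lost under 8 alternatives, among them quantile normalization, the GC and length correction and leaving out *Ctrl* line 1 or *Tet iTKO* line 1 or 3), for trophoblast 1 of 5 (*Gcm1*), for oocyte 0 of 1 (0 at an unadjusted p under 0.05), and for testis and germ cells 0 of 9 higher and 1 lower (*Dazl*). *Tmem92* and *Myh6* were the members of any of these lists among the 34.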

How the data were processed

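Normalized read counts of 3 *Ctrl* and 3 *Tet iTKO* Smart-Seq2 libraries were used. The authors aligned paired reads of 50 bases uniquely with STAR, counted them per gene with HTSeq 0.7.1 at a quality minimum of 10 and divided the counts by DESeq2 1.26.0 size factors (R 3.5.2, build mm9; versions and build from the submitters' processing notes). The deposited files hold the quotients as rounded whole numbers, treated here as a score and not as reads, so no count model was run. HTSeq was set to use strand, which Smart-Seq2 does not keep.

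Genes were matched by ID to GENCODE M21 (GRCm38), which gave a symbol for 20775 of 22380; coordinates served only for distances. The reads behind the values were estimated from the numbers that rounding skips. Groups were compared over all genes with a mean of at least 10 by limma 3.58.1 in R 4.3.3 (log2(value + 1), eBayes with trend, Benjamini-Hochberg), checked on simulated data; fold changes on this scale understate those of low genes. p-values measure the spread between lines. Other steps ran in Python 3.11.15 (pandas 2.3.3). Members, gene lists and family lists were chosen with earlier results of these data known. Values are printed for the 15 members with the highest *Tet iTKO* mean, those in a marker list, those that share a symbol root and those within 50 kb of each other; the other members and all relatives were named after their values were seen. Alternatives changed the limits, scaling, pseudocount, filter, variance model, replicate block, GC and length (loess, span 0.3) and libraries.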

Additional observations from a re-analysis of the deposited data

How the results depend on the processing

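The 34 genes depend on the limits that chose them. A *Ctrl* limit of 0, 1 or 3 gave 5, 20 or 55 genes, and a *Tet iTKO* minimum of 5, 10 or 20 gave 81, 19 or 2. Leaving out 1 library gave 51 to 58, since fewer values had to meet the limits, and all 34 were among them. Rescaling by trimmed means of M values, with factors of 0.987 to 1.01, left 13 genes, because it moves values of exactly 2 and 8 past the limits; rounded again to whole numbers, a step chosen after seeing the data, it gave the same 34. After correcting values for transcript GC content and length, chosen for this rule after seeing the data, 13 genes remained, and 22 with rounding. With the excluded prefixes kept there were 36.

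Of the 34, 7 were tested and called higher. Without a filter on the mean 34 were, beside 691 genes called higher among all 16064 in that fit. With a mean of at least 50 none was tested and 0 were called. Without 1 library 4 to 14 were called, as the mean over fewer libraries changed which genes were tested. The same values chose the 34 genes, so nothing is read from these counts of calls. Over all genes, 521 were called higher and 137 lower. These counts were 129 and 56 with a mean of at least 50, 1074 and 833 with a fold threshold of 0.5, and 1731 and 1934 with none; quantile normalization called 253 lower. Without 1 library 400 to 565 were higher and 115 to 139 lower.

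Of marker list genes, 14 were called higher and 1 lower; 26 and 4 without the filter, 4 higher with a mean of at least 50, 22 and 11 with no fold threshold, 3 lower with a fold of 0.5, 2 lower with quantile normalization or the GC and length correction (with or without the block), and 11 to 18 higher and 1 to 2 lower without 1 library. Of neighbours within 50 kb, 7 were called higher; 1 with a mean of at least 50, 3 with quantile normalization, 2 with the GC and length correction, 3 with that correction and the replicate block, 12 and 21 with a fold of 0.5 and none, 2 within 10 kb, 16 within 200 kb, and 3 to 8 without 1 library. The cause of these changes was not tested. Log2 fold changes that turned sign with the GC and length correction, with or without the block, were those of *Notch3* (-0.18), *Notch4* (-0.05) and *Hes1* (0.06).

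The replicate numbers do not pair the lines: deviations of same-numbered *Ctrl* and *Tet iTKO* libraries correlated at 0.001, -0.005 and -0.003. With the replicate number as a block, 518 genes were higher and 139 lower, and 7 of the 34 were called, as without it. Depth limits all of these values, since a count of 8 is about 7.3 to 10.3 reads.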

Other observations

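Genes just beyond the limits held further developmental regulators, named here after their values were seen and reported as values only. *Gcm1*, a transcription factor of the placenta, had 0, 0 and 3 normalized counts in *Ctrl*, against 28, 26 and 17 in *Tet iTKO*. *Mixl1*, a homeobox gene of the primitive streak, had 3, 3 and 1 against 8, 8 and 12. *Fgf8*, a growth factor of the gastrulating embryo, was at 0 in *Ctrl* and had 13, 10 and 7. The limits that picked these 3 genes place every *Tet iTKO* value above every *Ctrl* value, so nothing is read from that. Receptors and growth factors among them were *Epor*, the erythropoietin receptor, with 0, 3 and 1 against 12, 13 and 10, and *Pdgfb*, with 3, 3 and 2 against 9, 13 and 15. *Epor* lies 5.21 kb from *Rgl3*, which is on the list. *Apln*, the apelin ligand, had 2, 1 and 0 against 13, 54 and 7, with *Tet iTKO* line 2 far above the other 2.

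In the reverse direction, *A2m*, a protease inhibitor of plasma, had 16, 12 and 11 normalized counts in *Ctrl*, against 1 in each *Tet iTKO* line. *Cdh20*, a cadherin, had 9, 13 and 8 against 0 in each. *Fhit*, a hydrolase gene in a fragile site, had 17, 17 and 8 against 0, 1 and 2, and *Hus1b*, a relative of the checkpoint gene *Hus1*, had 19, 12 and 9 against 2, 2 and 0. These values chose the 4 genes and are not tested.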
